A study of Mus musculus with 2 samples.

Results

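Arterial endothelial cells of the heart were picked out here by the genes they carried in single-cell RNA sequencing of non-cardiomyocytes. A cell was a member when it had at least 1 UMI (1 counted RNA molecule) of at least 2 of 5 arterial genes, Gja4, Gja5, Hey1, Sema3g and Stmn2. It also needed a UMI of at least 2 of the 4 endothelial genes Pecam1, Cdh5, Egfl7 and Esam, no UMI of Prox1 (lymphatic) or Npr3 (endocardial), and under 0.3% of its UMIs from the collagen and decorin genes Dcn, Col1a1, Col1a2 and Col3a1. Of 15964 cells past the cell filter, 125 were members, 93 of 8000 in the TAC library and 32 of 7964 in the sham library. The comparison cells were the endothelial cells chosen in the same way that had none of the 5 genes, 382 in the TAC library and 77 in the sham library. Endothelial cells with 1 of the 5 genes, 235 in the TAC library and 61 in the sham library, fell between these sets.

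Hearts came from male C57BL6/J wildtype mice on day 20 after TAC or after sham surgery. TAC (transverse aortic constriction) narrows the aortic arch and loads the left ventricle with pressure. Hearts were digested with enzymes, cardiomyocytes were left to settle, and living single cells were sorted and run on the 10x Genomics 3′ platform. Each condition is 1 library, and the number of mice behind a library is not stated, so no difference between TAC and sham has a replicate check and none was tested. Every interval below is a 95% exact interval that covers counting error only.

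Arteries carry blood towards the capillaries, and their endothelium keeps a program of its own that Notch signalling and SOX17 set up during development. Its cells couple through the connexins that Gja4 and Gja5 encode, deposit the elastic fibre proteins that let the wall recoil, and release vasoactive factors. In the heart this endothelium lines the coronary arteries and arterioles, and it grades into capillary endothelium, which takes up fatty acids for the muscle.

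Promoters of the rule genes are shown because the rule rests on their RNA. RefSeq promoters of GRCm38.p6 were at hand for 3 of the 5 genes, Gja4, Gja5 and Sema3g. The 250 bases before the start of each are printed 5′ to 3′ on the gene's strand, Gja4 from chr4:127314040-127314289 on the minus strand, Gja5 from chr3:97032152-97032401 on the plus strand and Sema3g from chr14:31217623-31217872 on the plus strand. Capitals mark GGGCGG or its reverse complement, the GC box.
Gja4: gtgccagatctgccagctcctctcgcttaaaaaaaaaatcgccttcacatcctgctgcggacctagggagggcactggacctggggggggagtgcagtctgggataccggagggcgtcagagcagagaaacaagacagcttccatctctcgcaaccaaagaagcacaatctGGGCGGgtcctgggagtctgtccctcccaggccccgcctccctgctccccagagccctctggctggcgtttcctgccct
Gja5: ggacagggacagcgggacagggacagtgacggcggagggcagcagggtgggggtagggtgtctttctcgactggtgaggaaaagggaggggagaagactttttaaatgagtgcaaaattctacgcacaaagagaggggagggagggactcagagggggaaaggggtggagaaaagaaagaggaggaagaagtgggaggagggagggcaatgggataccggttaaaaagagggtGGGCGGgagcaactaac
Sema3g: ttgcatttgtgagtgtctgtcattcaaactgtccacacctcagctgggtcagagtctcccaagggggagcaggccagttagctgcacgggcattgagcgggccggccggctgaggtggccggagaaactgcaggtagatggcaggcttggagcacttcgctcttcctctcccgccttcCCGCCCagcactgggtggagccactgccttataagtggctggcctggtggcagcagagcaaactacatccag
All 3 hold 1 GC box, a sequence present in 32.7% of 32851 promoter windows of the same length. GTGGGAA, the motif of the Notch-dependent factor RBPJ, was in none of the 3 and in 5.42% of all windows. Its inner part TGGGAA was also in none of them and in 21.6% of all windows. CACCC, which KLF factors bind, was in Gja5 and Sema3g and in 52.0% of all windows, and ACAATG, a SOX motif, was in none of the 3 and in 10.7% of all windows. Both strands were searched, TGGGAA matches include those of GTGGGAA, and a match is a description of these letters alone.

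Depth and other cells bear on everything that follows. TAC members summed to 540704 UMIs, with a median of 4630 per cell, and sham members summed to 88535 UMIs, with a median of 1886. Levels are given as CPM, the UMIs of a gene scaled to a common total per cell set, so that 1 UMI was worth 1.85 CPM in TAC members and 11.3 CPM in sham members. The libraries shared 15 cell barcodes. Scrublet, which calls droplets with 2 cells, marked 1.83% of TAC cells and 0.879% of sham cells, and among members it marked 1 TAC cell and 0 sham cells; none was removed. At least 2 markers of another cell class were present in 34 of 93 TAC members and 6 of 32 sham members. In TAC members these were lymphatic markers in 22 cells, mural markers in 7, macrophage markers in 6, endocardial markers in 6 and lymphocyte markers in 1, some cells having more than 1 class. In sham members they were lymphatic in 3 cells, endocardial in 3, macrophage in 1 and mural in 1. The arterial label thus describes a part of the set only, and the main results below are also given without such cells, for 59 TAC and 26 sham members with 251989 UMIs (TAC) and 53363 UMIs (sham) ("unmarked members"). The comparison cells were filtered in the same way, leaving 302 TAC and 50 sham cells.

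The values that chose the members are given as a description. Stmn2, which encodes a microtubule regulator best known from neurons, was the most often seen of the 5 genes, with UMIs in 76 of 93 TAC members and 27 of 32 sham members. Hey1, a repressor induced by Notch, had UMIs in 56 TAC and 22 sham members. Gja4 was seen in 49 TAC and 19 sham members, and Sema3g, a secreted semaphorin, in 48 TAC and 15 sham members. Gja5 was the rarest, in 20 TAC and 6 sham members. Summed over members, Stmn2 stood at 645 CPM in the TAC library (579 to 717) and 757 CPM in the sham library (587 to 961), and Gja5 at 68.4 CPM (48.2 to 94.3) in the TAC library and 124 CPM (62.0 to 222) in the sham library. Some of the rule genes were also seen in other cell types. Among fibroblasts, with a median of 12021 UMIs in the TAC library and 5008 in the sham library, Hey1 was in 9.86% of TAC and 3.96% of sham cells and Gja4 in 9.0% of TAC and 3.07% of sham cells, while Gja5, Sema3g and Stmn2 were each in under 1%. Among macrophages, with medians of 9053 UMIs in the TAC library and 4573 in the sham library, Hey1 was in 0.598% of TAC and 0% of sham cells and Gja4 in 0.957% of TAC and 0.182% of sham cells, lower than in fibroblasts in both libraries.

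A share of 13.1% of TAC endothelial cells were members (93 of 710, Clopper-Pearson 10.7 to 15.8) against 18.8% of sham endothelial cells (32 of 170, 13.3 to 25.5). Unmarked members made up 8.31% of TAC (6.39 to 10.6) and 15.3% of sham endothelial cells (10.2 to 21.6). Of all cells past the cell filter the order was opposite. Members were 1.16% of these in the TAC library (0.939 to 1.42) and 0.402% in the sham library (0.275 to 0.567). The shares that follow are of endothelial cells. With the TAC library drawn down to the median depth of sham endothelial cells the TAC share was 8.41%, beside the 18.8% of the sham library. The TAC members then still had a median of 3095.5 UMIs, against 1886 in sham members. With every cell thinned to 1000 UMIs the shares were 4.52% in the TAC library and 13.1% in the sham library. For thinning to 2000 UMIs, cells with fewer UMIs were left out, and the median sham member had 1886. The shares were then 7.83% in the TAC library (57 of 728) and 7.53% in the sham library (7 of 93). This was the 1 of these depth settings in which the TAC share was not the lower.

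Most members with foreign markers had the minimum of 2 rule genes. Of the 52 TAC members with 2 of the 5 genes, 26 had markers of another class, and of the 41 with 3 to 5 genes, 8 did. In the sham library this held for 6 of 16 members with 2 genes and 0 of 16 with 3 to 5 genes. The pair Gja4 and Stmn2 and no other rule gene made up 19 TAC members, of which 14 carried foreign markers, and 2 sham members, of which 0 did. Hey1 with Sema3g alone made up 7 TAC members and 1 sham member, and none of them carried foreign markers.

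**Figure D1:**
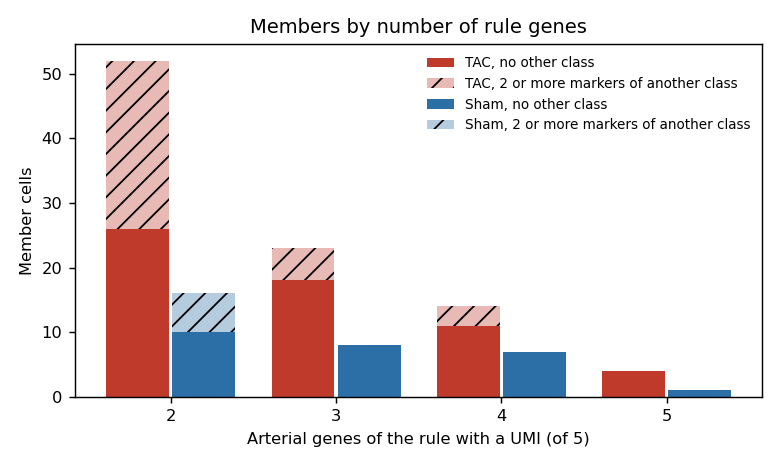
Number of member cells (vertical axis) by how many of the 5 arterial rule genes had a UMI (horizontal axis), TAC bars left of sham bars; solid bars are members without markers of another class and hatched bars those with at least 2 such markers. Hatching is most common at 2 genes, where 26 of 52 TAC and 6 of 16 sham members carry foreign markers, and no sham member with 3 or more genes does.

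Arterial markers that the rule did not use were higher in cells with 2 or more rule genes than in cells with 0 or 1. The summed level of 14 such markers in TAC cells with 0, 1, 2 and 3 to 5 rule genes was 1701, 1811, 2690 and 5430 CPM, and in sham cells it was 1488, 1296, 2093 and 8428 CPM. Without cells carrying foreign markers the steps were 2422, 2406, 5326 and 7234 CPM in the TAC library and 2106, 2499, 3679 and 8428 CPM in the sham library. Cells just outside the threshold, with 1 rule gene, thus had levels near those with 0, and cells just inside, with 2, stood above both in each library. Venous markers were lower in cells with 2 or more: at 0, 1, 2 and 3 to 5 rule genes they summed to 1387, 1872, 685 and 494 CPM in TAC cells without foreign markers and to 1553, 1783, 216 and 264 CPM in such sham cells. Capillary markers remained abundant in cells with most rule genes. At 0, 1, 2 and 3 to 5 rule genes they summed to 41824, 36841, 35107 and 29865 CPM in TAC cells without foreign markers. In such sham cells the sums were 34422, 23424, 9867 and 16294 CPM, so cells with 2 rule genes differed most between the libraries. Lymphatic markers at 0, 1, 2 and 3 to 5 rule genes summed to 405, 918, 2793 and 611 CPM in all TAC cells and to 1042, 2092, 1081 and 33.1 CPM in all sham cells, highest at 2 genes in the TAC library and at 1 gene in the sham library.

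**Figure D2:**
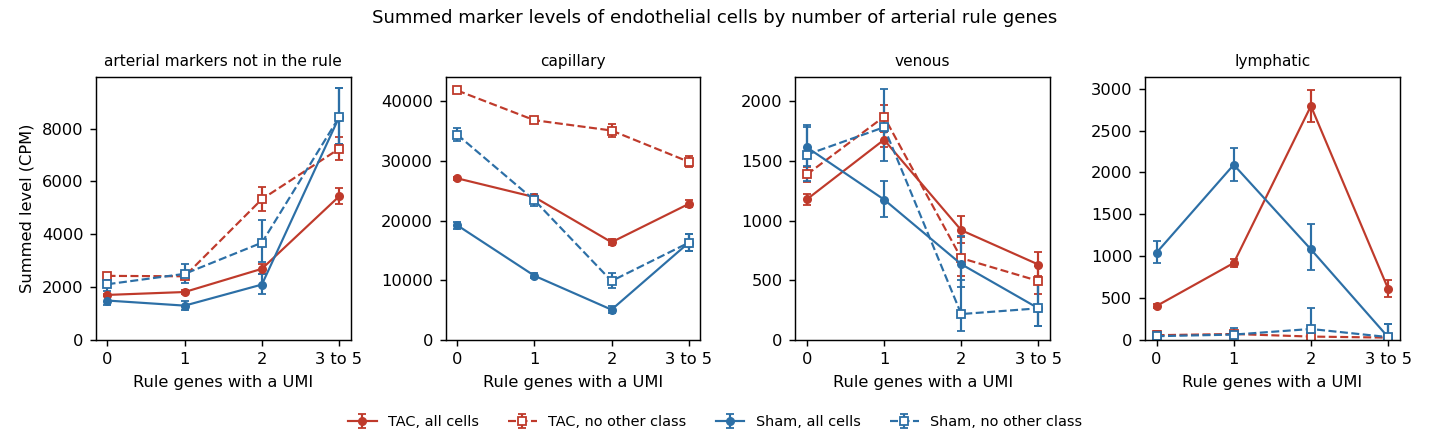
Summed level of 4 marker lists (vertical axes, CPM, each from 0) in endothelial cells by number of arterial rule genes with a UMI (horizontal axes), in TAC (red) and sham (blue); filled circles are all cells, open squares cells without markers of another class, and bars are exact Poisson intervals. Arterial markers outside the rule climb to 5430 CPM in TAC and 8428 CPM in sham cells with 3 to 5 rule genes. Lymphatic markers lie at or under 130 CPM once marked cells are left out, which follows from the exclusion because these same markers mark a cell.

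Compared with endothelial cells that had none of the 5 genes, arterial members carried more RNA for matrix proteins such as fibulins, for the Notch ligand Jag1 and for the transcription factors Sox17 and Mecom, and less for the apelin receptor and capillary carbonic anhydrase. A gene was counted when it was at least 2-fold higher or lower in both libraries on the log2(CPM + 10) scale, among 3660 genes with at least 50 CPM. Of these, 60 genes (1.64%) were higher and 22 (0.601%) lower in members, and without cells carrying foreign markers 88 (2.36%) were higher and 56 (1.5%) lower of 3724. A gene that reached 50 CPM in 1 of the sets alone could differ in 1 direction only, so lists are described by the genes with at least 50 CPM in all 4 sets compared. Of all 2647 such genes, 14 (0.529%) were higher and 5 (0.189%) lower in both libraries. Of 26 arterial genes outside the rule, 13 were among them, and 6 of the 13 were higher in both libraries and 0 lower. Their median log2 ratio was 1.22 in the TAC library and 1.39 in the sham library, beside medians over all such genes of 0.061 and 0.043. A further 6 arterial genes reached 50 CPM in the members of both libraries but not in the comparison cells of both. None of these could have been called lower, and 4 were at least 2-fold higher in both libraries. Without cells carrying foreign markers 9 of 16 that reached it in all sets were higher and 0 lower.

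Fbln5 (fibulin-5, needed for elastic fibres, chr12:101746565-101819055 in GRCm38) was seen in most members. It stood at 501 CPM in TAC members and 28.7 CPM in TAC comparison cells, a ratio of 17.5 (13.3 to 23.1), and at 802 CPM in sham members and 78.8 CPM in sham comparison cells, a ratio of 10.2 (6.0 to 18.2). UMIs were found in 59 of 93 TAC members and 20 of 32 sham members, against 26 of 382 TAC and 10 of 77 sham comparison cells. Without cells carrying foreign markers the ratio was 47.4 in the TAC library and 35.8 in the sham library. Fbln2, a related matrix protein, had ratios of 3.55 (3.02 to 4.16) in the TAC library and 5.16 (2.81 to 9.85) in the sham library. Fn1, which encodes fibronectin, had ratios of 5.40 (4.20 to 6.96) in the TAC library and 14.2 (4.82 to 56.7) in the sham library. Of the 23 genes on the elastic and conduit matrix list, 5 reached 50 CPM in all 4 sets, and 2 of the 5 were higher in both libraries and 0 lower. A further 4 reached it in the members of both libraries but not in the comparison cells of both. None of these could have been called lower, and 3 were higher. Ltbp4, which binds latent TGF-beta, had log2 ratios of 1.28 in the TAC library and 1.08 in the sham library, whereas Eln, the elastin gene itself, had 0.82 and 0.14.

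Alpl, the tissue-nonspecific alkaline phosphatase (chr4:137741733-137796384), stood at 68.4 CPM in TAC members against 2.53 CPM in TAC comparison cells, and at 215 CPM in sham members against 4.38 CPM in sham comparison cells. The TAC ratio was 27.0 (11.3 to 78.3) and the sham ratio, over a single comparison UMI, 49.0 (7.80 to 2038). Nebl, which encodes the actin-binding protein nebulette, had 64 UMIs in 28 TAC members against 4 UMIs in TAC comparison cells, and 14 UMIs in 7 sham members against 1. Eps8l2, an actin regulator, had 32 UMIs in TAC members against 1 in TAC comparison cells, and 9 UMIs in sham members against 0, which makes it at least 7.74-fold higher in sham members with 3 counts as the floor. St8sia6, a sialyltransferase, had ratios of 7.14 (4.32 to 11.98) in the TAC library and 12.3 (4.07 to 49.6) in the sham library.

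Among regulators, Sox17, an arterial transcription factor, stood at 509 CPM in TAC members against 153 CPM in TAC comparison cells and at 463 CPM in sham members against 70.0 CPM in sham comparison cells. Mecom, a zinc-finger transcription factor, had log2 ratios of 1.44 in the TAC library and 2.62 in the sham library, and Efnb2, the arterial ephrin ligand, 1.49 and 1.98. Jag1, a Notch ligand, had ratios of 4.89 (3.30 to 7.29) in the TAC library and 6.97 (3.27 to 16.1) in the sham library. Smad6, an inhibitor of BMP signalling, had ratios of 4.62 (3.14 to 6.80) in the TAC library and 6.34 (3.04 to 14.2) in the sham library. On the Notch target list 7 of 13 genes reached 50 CPM in all 4 sets, and 2 of the 7 (Sox17 and Efnb2) were higher in both libraries and 0 lower. Of the Notch ligands, receptors and modifiers, 3 reached 50 CPM in all 4 sets, and 0 of the 3 were higher or lower in both libraries; Jag1 reached it in members alone. Clu (clusterin) and Azin1, which frees ornithine decarboxylase from its inhibitor, were higher by log2 ratios of 2.85 and 1.98 in the TAC library and 2.03 and 2.16 in the sham library. Odc1, ornithine decarboxylase itself, was lower, with log2 ratios of -1.75 in the TAC library and -1.17 in the sham library. Not every arterial gene was high in members: Nrp1, the semaphorin and VEGF co-receptor, had log2 ratios of -0.51 in the TAC library and -0.64 in the sham library.

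Some named genes lay in few cells. Igfbp5, an IGF-binding protein, had 905 UMIs in 20 TAC members, of which 164 were in 3 of the 59 unmarked cells, and 544 UMIs in 10 sham members, of which 206 were in 4 of the 26 unmarked cells. Rgs5, a mural marker, had 238 UMIs in TAC members, of which 34 were in unmarked cells, and its TAC log2 ratio was 2.47 with all members and 0.95 without marked cells.

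Aplnr, the apelin receptor of venous and capillary endothelium, ranked first on the low side. It had 20 UMIs in 5 of 93 TAC members against 658 UMIs in 226 of 382 TAC comparison cells, and 1 UMI in sham members against 60 in sham comparison cells. Its TAC level was 7.51-fold lower in members (4.83 to 12.4), and without marked cells its log2 ratio was -2.78 in the TAC library and -4.05 in the sham library. Mest, an imprinted gene, had 8 UMIs in TAC members against 359 in TAC comparison cells, and 0 in sham members against 32, at least 4.13-fold lower. Car4, the carbonic anhydrase of capillaries, was 3.01-fold lower in TAC members (2.18 to 4.26) and, with 0 UMIs in sham members against 27, at least 3.49-fold lower there. Fmo2, a monooxygenase, had log2 ratios of -2.30 in the TAC library and -2.60 in the sham library. Capillary genes as a list were near the comparison cells in TAC members, with a median log2 ratio of -0.072 over the 19 at 50 CPM or more in all sets and 1 of the 19 at least 2-fold lower. In sham members the median was -0.42, and 7 of the 19 were at least 2-fold lower and 1 higher. Summed macrophage markers were 3571 CPM in TAC members against 5938 CPM in TAC comparison cells, and 1434 CPM in sham members against 2831 CPM in sham comparison cells; summed haemoglobin RNA was 446 CPM in TAC members against 7558 CPM in TAC comparison cells, and 124 CPM in sham members against 127 CPM in sham comparison cells. Their part in these ratios was not tested. Of the named genes, 14 of 15 on the high side, Rgs5 being the exception, and 9 of the 9 reported on the low side kept a ratio of at least 2-fold in both libraries without marked cells.

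**Figure D3:**
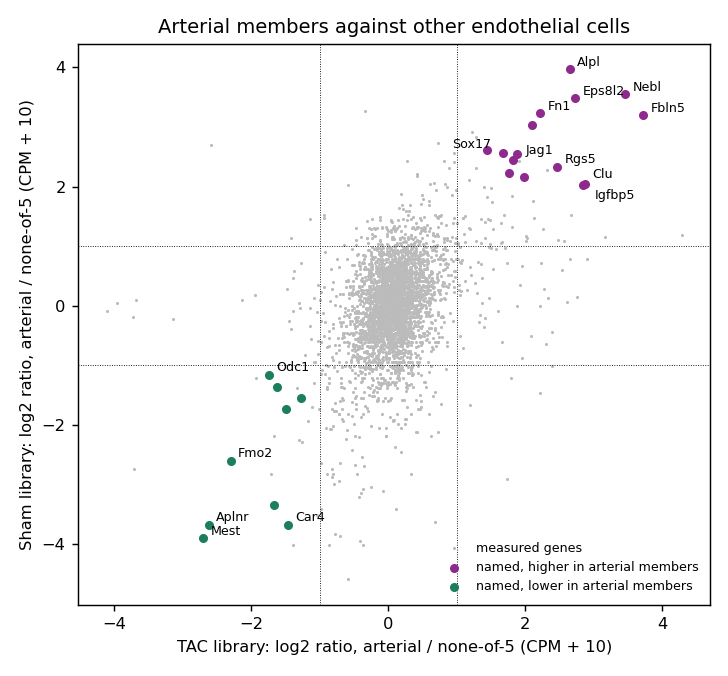
Log2 ratio of arterial members to none-of-5 endothelial cells, on the CPM + 10 scale, in the TAC library (horizontal axis) and the sham library (vertical axis), for 3660 measured genes (grey) and the named genes (purple higher, green lower); dotted lines mark 2-fold. Fbln5, Nebl and Alpl lie far towards the upper right corner and Aplnr and Mest towards the lower left.

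Unmarked members were also split by each rule gene, a value that had chosen them. The 14 arterial markers outside the rule summed higher at 3 to 5 rule genes than at 2. These splits are not separate from the number of rule genes, which was not held equal, and they define no subsets. Among unmarked TAC members, the 25 with a Gja4 UMI had Fbln5 at 1245 CPM (1052 to 1463) and the 34 without at 485 CPM (375 to 619). Among unmarked sham members, the 17 with Gja4 had Fbln5 at 1742 CPM (1309 to 2273) and the 9 without at 581 CPM (310 to 994). The 14 arterial markers outside the rule include Fbln5, so their sum is not separate from its difference. They summed to 7241 CPM with and 5772 CPM without Gja4 in the TAC library. In the sham library they summed to 8290 CPM with and 3712 CPM without it. Cells with Sema3g had Fbln5 at 995 CPM against 529 CPM without it in the TAC library, and at 1650 CPM against 659 CPM without it in the sham library. For the other 3 rule genes Fbln5 was not higher with the gene in both libraries. Fbln5 was 830 CPM with and 865 CPM without Hey1 in TAC members, and 1165 CPM with and 1380 CPM without it in sham members. With Stmn2 it was 955 CPM against 355 CPM without in TAC members, and 1250 CPM against 1329 CPM without in sham members, where 3 cells lacked Stmn2. For Gja5, the other arterial connexin of the rule, it was 1321 CPM with and 611 CPM without in TAC members, and 794 CPM with and 1380 CPM without in sham members, where only 6 cells had Gja5. Capillary markers were 24959 CPM with and 35367 CPM without Gja5 in TAC members, and 20743 CPM with and 11562 CPM without in sham members.

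The second question was how arterial members of the TAC heart compared with those of the sham heart. Higher in TAC members were Ddit4, a stress-induced inhibitor of mTOR signalling, and several genes of capillary endothelium and basement membrane. Lower were Edn1 and the stress gene Gadd45g. Further arterial genes outside the rule went both ways, with Jag1, Jag2, Vegfc, Alpl and Ptprr lower and others, such as Cxcl12, higher. Over 4667 genes with at least 50 CPM in 1 of the libraries, 404 (8.66%) were at least 2-fold higher and 506 (10.8%) at least 2-fold lower in TAC members, and without marked cells 593 (12.3%) were higher and 714 (14.9%) lower of 4802. The median log2 ratio over all measured genes was -0.16. A gene that reached 50 CPM in 1 library alone could differ in 1 direction only, so lists are described below by the genes that reached it in both. Of all 3082 such genes in members, 119 (3.86%) were higher and 139 (4.51%) lower, with a median of -0.094, and without marked cells 147 (4.86%) were higher and 152 (5.03%) lower of 3022. In comparison cells 64 (2.11%) were higher and 47 (1.55%) lower of 3036. Depth, library and surgery cannot be told apart with 1 library each. Summed macrophage markers were 3571 CPM in TAC members and 1434 CPM in sham members, and summed lymphatic markers 1822 CPM in TAC members and 723 CPM in sham members. Among unmarked members the macrophage sums were 59.5 CPM in TAC and 37.5 CPM in sham cells. These low sums follow from the exclusion because the same markers mark a cell. In the none-of-5 cells 134 genes (3.52%) were higher and 147 (3.86%) lower in TAC, of 3804, and without marked cells 201 (5.33%) were higher and 169 (4.48%) lower, of 3772.

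Ddit4 (chr10:59949669-59951834) had 114 UMIs in 53 of 93 TAC members and 0 UMIs in 32 sham members, at least 6.22-fold higher in TAC members. Without marked cells it had 61 UMIs in 29 of 59 TAC members and 0 in sham members. Among the comparison cells, TAC cells had 204 CPM and sham cells 8.75 CPM. The difference was not particular to endothelium: fibroblasts had 112 CPM in the TAC and 21.2 CPM in the sham library. Macrophages had 83.7 CPM in the TAC and 2.45 CPM in the sham library. Ddit4 is also a target of the glucocorticoid receptor. On the list of 19 such targets 7 reached 50 CPM in both libraries, and 2 of the 7 were at least 2-fold higher in TAC members and 0 lower, with a median log2 ratio of 0.62, beside 1 of 10 higher, 0 lower and a median of 0.45 in comparison cells. A further 7 targets, Ddit4 among them, reached it in TAC members alone, so none of them could have been called lower. Of these 7, 6 were at least 2-fold higher, a count that adds nothing to that of the list. Fkbp5 had 41 UMIs in TAC members and 0 in sham members, and Per1 had 38 in TAC members and 0 in sham members. Without marked cells 1 of 8 was higher; Mt1, a metallothionein, had log2 ratios of 2.81 in all members and 0.05 without marked cells.

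Lpl, lipoprotein lipase, stood at 403 CPM in TAC members and 45.2 CPM in sham members, a ratio of 8.92 (3.44 to 33.1), and at 720 CPM in TAC comparison cells and 398 CPM in sham comparison cells. Timp4, an inhibitor of matrix metalloproteinases, stood at 496 CPM in TAC members and 79.1 CPM in sham members, a ratio of 6.27 (3.00 to 15.7), and at 820 CPM in TAC and 306 CPM in sham comparison cells. Rbp7, a retinol-binding protein of cardiac capillaries and arteries, stood at 3135 CPM in TAC members and 779 CPM in sham members, a ratio of 4.02 (3.16 to 5.19). In the comparison cells Rbp7 was 1898 CPM in TAC and 109 CPM in sham cells, a log2 ratio of 4.00 beside 1.99 in members. Gpihbp1, which anchors lipoprotein lipase on capillaries, had a ratio of 3.89 (2.80 to 5.56) in members, and Fabp4, a fatty acid carrier, 2.14 (1.95 to 2.34). On the capillary list 19 genes reached 50 CPM in both libraries, and 8 of the 19 were at least 2-fold higher in TAC members and 0 lower, with a median log2 ratio of 0.80, beside 4 of 22 higher, 0 lower and a median of 0.56 in comparison cells. Without marked cells 12 of 20 were higher, 0 lower and the median was 1.17. On the fatty acid list 2 of 9 such genes were higher and 0 lower, with a median of 0.31, and Lpl was 1 of 3 further genes that reached 50 CPM in TAC members alone.

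Of 10 basement membrane genes at 50 CPM or more in both libraries, 3 were at least 2-fold higher in TAC members and 0 lower, with a median log2 ratio of 0.69, beside 4 of 11 higher, 0 lower and a median of 0.73 in comparison cells. Sparc, a collagen-binding matrix protein, stood at 2328 CPM in TAC members and 779 CPM in sham members, a ratio of 2.99 (2.34 to 3.87), and Col4a2, a chain of type IV collagen, had a ratio of 2.35 (1.46 to 4.02). Tmsb10, which sequesters actin, had 309 UMIs in 49 TAC members and 7 UMIs in 4 sham members, a ratio of 7.23 (3.47 to 18.1), and without marked cells 64 UMIs in TAC members and 3 in sham members. Lgals1, which encodes galectin-1, had 103 UMIs in TAC members and 1 in sham members, a ratio of 16.9 (2.96 to 673). Without marked cells it had 17 UMIs (67.5 CPM) in TAC members and 1 UMI (18.7 CPM) in sham members. The interval of that ratio (0.564 to 150) includes equality. Comparison cells had Lgals1 at 230 CPM in the TAC and 166 CPM in the sham library.

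Several genes on the high side had most of their UMIs in marked cells. Lrg1, a modulator of TGF-beta signalling, had 317 UMIs in TAC members, of which 275 were in 17 of the 22 cells with lymphatic markers, and 1 UMI in sham members; unmarked cells held 41 UMIs in 5 of 59 TAC members and 0 in sham members. Fgl2, a fibrinogen-like protein, had 407 UMIs in TAC members, of which 392 were in the cells with lymphatic markers, and 9 in sham members, all in cells with lymphatic markers. Lcn2 (lipocalin) had 135 UMIs in TAC members, of which 133 were in the cells with lymphatic markers. Lyz2, macrophage lysozyme, had 1179 UMIs in TAC members, of which 1163 were in the 6 cells with macrophage markers. The log2 ratios of Cebpb, Ifi27l2a, Lcn2 and Lyz2, which were 3.67, 2.56, 2.99 and 2.36 over all members, were 0.50, 0.40, 0.48 and -1.19 without marked cells.

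Edn1, the precursor of the vasoconstrictor endothelin (chr13:42301476-42307990), had 18 UMIs in 11 of 93 TAC members and 22 UMIs in 10 of 32 sham members. That is 33.3 CPM in TAC members and 248 CPM in sham members, 7.46-fold lower in TAC members (3.82 to 14.8). Without marked cells it had 12 UMIs in TAC members and 22 in sham members, 8.66-fold lower (4.10 to 19.2). Comparison cells had 22.4 CPM in the TAC and 48.1 CPM in the sham library. Gadd45g, a growth arrest and stress gene, stood at 179 CPM in TAC members and 937 CPM in sham members, 5.23-fold lower (3.85 to 7.08), and 1 sham cell held 23 of its 83 sham UMIs. In the comparison cells Gadd45g was 97.6 CPM in TAC and 166 CPM in sham cells. Cystm1 had 21 UMIs in 13 TAC members and 25 UMIs in 13 sham members, 7.27-fold lower (3.91 to 13.7).

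Arterial genes outside the rule went both ways between TAC and sham members. Of 26, 19 reached 50 CPM in both libraries, and 5 of the 19 (Jag1, Jag2, Vegfc, Alpl and Ptprr) were at least 2-fold lower in TAC members and 2 higher. Their median log2 ratio of -0.094 was that of all genes at this level. In comparison cells 0 of 13 were lower and 2 higher, with a median of 0.34, and in members without marked cells 5 of 20 were lower and 4 higher. Edn1, Bmx, Hey2, Slc45a4 and Sox7 reached 50 CPM in sham members alone, so none of them could have been called higher, and these counts leave them out. The values of single genes that follow are over all members, marked cells included. The summed level of 14 arterial markers outside the rule was 3910 CPM in all TAC members and 4258 CPM in all sham members. Among unmarked members it was 6461 CPM in TAC and 6371 CPM in sham cells. Jag1 stood at 105 CPM in TAC members and 305 CPM in sham members, 2.89-fold lower (1.76 to 4.65). Vegfc, a growth factor for lymphatic vessels, stood at 200 CPM in TAC members and 520 CPM in sham members, 2.60-fold lower (1.80 to 3.71), and Alpl was 3.14-fold lower (1.70 to 5.6). Jag2, a second Notch ligand, was 2.23-fold lower (1.25 to 3.84), and Ptprr, a receptor-type phosphatase, 4.23-fold lower (2.69 to 6.59). Hey2, a Notch-induced repressor, had 1 UMI in TAC members and 9 in sham members, and Bmx had 8 in TAC members and 5 in sham members, 3.82-fold lower with an interval that includes equality (0.982 to 13.2). Nrarp, a feedback inhibitor of Notch, had 55 UMIs in TAC members and 31 in sham members, 3.44-fold lower (2.14 to 5.44). Sox17 and Efnb2 had ratios of 1.10 (0.789 to 1.57) and 0.935 (0.603 to 1.51), intervals that include equality. Cxcl12, the chemokine ligand of CXCR4, went the other way, at 1148 CPM in TAC members and 395 CPM in sham members, a ratio of 2.91 (2.07 to 4.21). On the Notch target list 3 of 7 genes at 50 CPM or more in both libraries were lower in TAC members and 0 higher, and on the TGF-beta and BMP list 4 of 13 were lower and 0 higher, beside 4.51% lower and 3.86% higher over all such genes. Without marked cells these counts were 2 of 6 and 2 of 12 lower, and 0 higher on both lists.

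**Figure D4:**
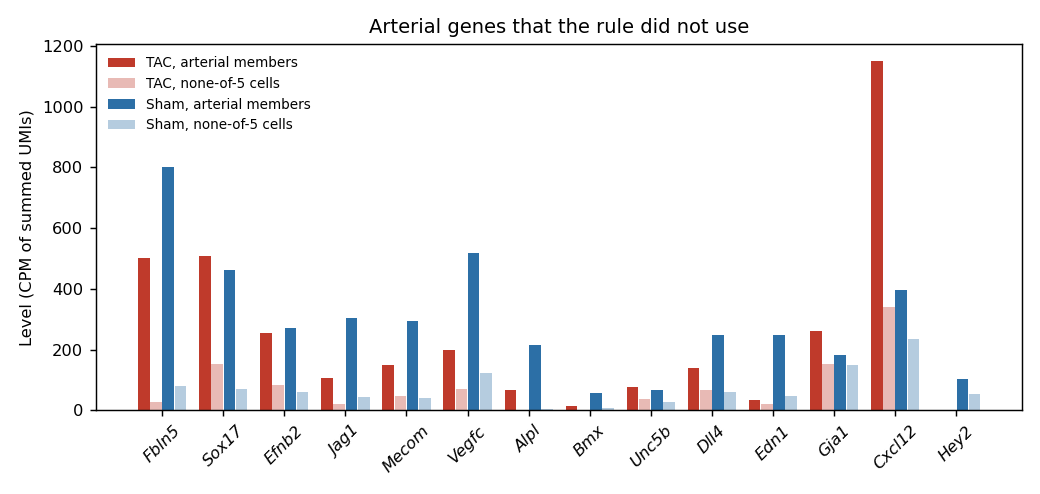
Levels of 14 arterial genes that the rule did not use (vertical axis, CPM of summed UMIs, from 0), for TAC members, TAC none-of-5 cells, sham members and sham none-of-5 cells from left to right in each group of bars; 1 library per condition, so no error bars. Fbln5, Vegfc, Jag1, Alpl and Edn1 are lower in TAC than in sham members, Sox17 and Efnb2 are close, and Cxcl12 is higher in TAC members, at 1148 against 395 CPM.

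Of 15 heat shock genes, 11 reached 50 CPM in both libraries of members, and 5 of the 11 (Hspa1a, Hspa1b, Hspb1, Hsp90aa1 and Hspd1) were at least 2-fold lower in TAC members and 0 higher, beside 4.51% lower over all such genes. In comparison cells 4 of 11 were lower and 0 higher, beside 1.55% lower over all such genes. The median log2 ratios were -0.87 in members and -0.67 in comparison cells, and without marked cells 2 of 11 were lower in TAC members. Hspb1 stood at 492 CPM in TAC members and 1728 CPM in sham members, 3.51-fold lower (2.86 to 4.30). Of 16 immediate early genes at this level 1 was lower and 0 higher, with a median of -0.021, which is near the share and median of all such genes; without marked cells 3 of 14 were lower, beside 5.03%, with a median of -0.69.

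The remaining genes reported on the low side were seen in 4 to 8 of the 32 sham members each. Ccdc141, Wnt9b, Pdlim3 and Cdh11 had 3, 1, 34 and 52 UMIs in TAC members and 36, 20, 39 and 45 UMIs in sham members, the sham UMIs all in cells with 2 rule genes. The 3 sham cells with endocardial markers held 31 of 36 Ccdc141 UMIs, 14 of 20 Wnt9b UMIs and 59 of 90 Prnp UMIs. Hbegf had 17 of its 20 sham UMIs in 2 of these cells. Among members with 3 to 5 rule genes, the log2 ratios of Pdlim3 and Cdh11 were 2.37 and 3.28.

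The strictest set, members with 3 to 5 rule genes and no foreign markers, held 33 TAC and 16 sham cells. There Ddit4 had 25 UMIs in 16 TAC cells and 0 in sham cells, Lpl stood at 427 CPM in TAC cells (329 to 545) and 99.2 CPM in sham cells (20.4 to 290), and Timp4 at 694 CPM in TAC cells (567 to 841) and 132 CPM in sham cells (36.0 to 339). Rbp7 stood at 5032 CPM in TAC cells (4679 to 5404) and 1487 CPM in sham cells (1085 to 1990). Edn1 stood at 60.1 CPM in TAC cells (27.5 to 114) and 496 CPM in sham cells (277 to 818), and Gadd45g at 314 CPM in TAC cells (230 to 417) and 2413 CPM in sham cells (1891 to 3034). Each of these 6 genes, picked from the named genes, kept the direction it had over all members, of which these cells are a part. Other named genes reversed in this set. Their TAC/sham log2 ratios were -0.81 for Lyz2, 0.18 for Prnp, 0.56 for Pgf, 1.88 for Pdlim3 and 1.22 for Cdh11.

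**Figure D5:**
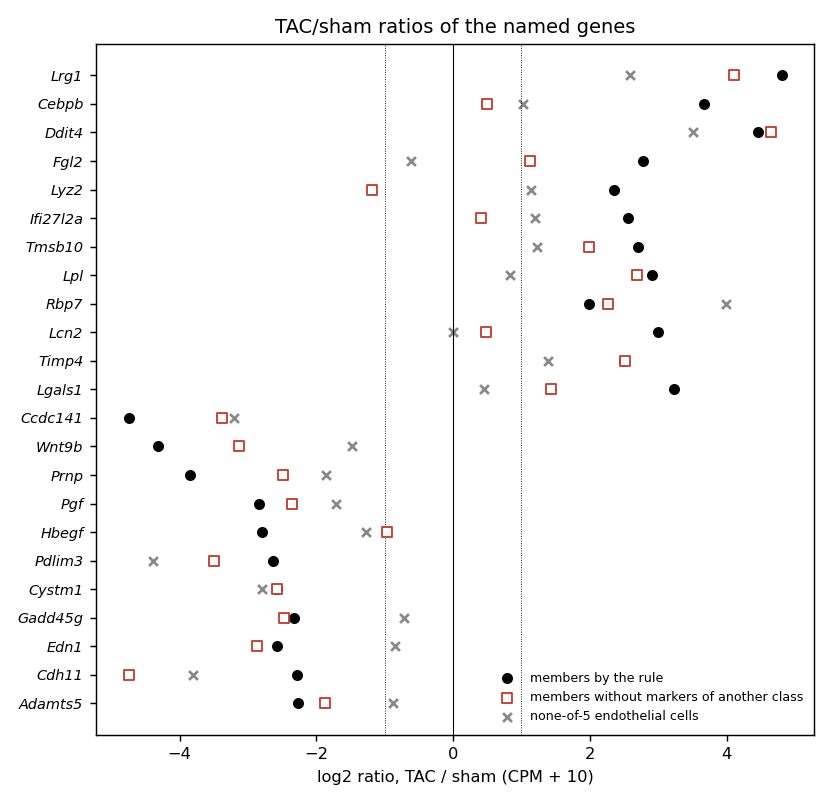
Log2 ratio of TAC to sham on the CPM + 10 scale (horizontal axis) for the 23 named genes reported (vertical axis), in members by the rule (black), members without markers of another class (open red squares) and none-of-5 endothelial cells (grey crosses); dotted lines mark 2-fold. Ddit4, Lpl, Timp4, Gadd45g and Edn1 stay past 2-fold when marked cells are left out, while Cebpb, Lcn2 and Ifi27l2a move to 0.50 or less and Lyz2 to -1.19.

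Set against the comparison cells, the TAC/sham log2 ratio of members was at least 1 higher for 338 of 3804 genes (8.89%) and at least 1 lower for 175 (4.6%); without marked cells 490 of 3772 (13%) were higher and 349 (9.25%) lower. Lpl had 2.90 in members and 0.84 in comparison cells, Edn1 had -2.58 in members and -0.84 in comparison cells, Gadd45g had -2.32 in members and -0.71 in comparison cells, and Rbp7 had 1.99 in members and 4.00 in comparison cells. With 1 library per condition these differences of ratios could not be tested.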

How the data were processed

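Cells were non-cardiomyocytes of 1 TAC and 1 sham library. The authors deposited 1 matrix of UMI counts per library (raw, with barcodes already called as cells). Per the file headers, the software was Cell Ranger 3.1.0; the submitters' processing notes also name Seurat and the mm10 build. Cells needed at least 500 genes, 1000 UMIs and at most 15% mitochondrial UMIs, which left 8000 of 8901 TAC and 7964 of 8426 sham barcodes. UMIs were summed per library and cell set, divided by the set's total (CPM), and compared as log2(CPM + 10) with NumPy 2.4.6, SciPy 1.17.1 and pandas 2.3.3. Genes needed 50 CPM in 1 of the sets compared; the 15 genes of the rule were left out. Lists are counted over genes that reached that level in every set compared, a choice made after seeing the data. Ratios carry exact conditional intervals, levels exact Poisson intervals and shares Clopper-Pearson intervals, at 95%, for counting error only. Scrublet was run through Scanpy 1.11.5 with an expected rate of 0.07. A cell was marked as another class with at least 2 macrophage, mural, lymphocyte, lymphatic or endocardial markers; that exclusion was chosen after seeing the data. The members, the motifs and the 34 gene lists were chosen with earlier results of these data known.

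Named genes were the 15 highest and 10 lowest between members and comparison cells, and 12 in each direction between TAC and sham, ranked by the interval bound nearest to 1; they needed UMIs in at least 10% of the cells of the higher set and, for TAC against sham, 20 UMIs. Rule, mitochondrial, ribosomal, haemoglobin, Y-linked and unnamed genes, Xist, and genes under 10% of their fibroblast or macrophage level were left out. Of the genes so ranked, 2 are not reported here. Genes named from the lists were the larger ratios in each, with some chosen after their values were seen. Alternatives were other thresholds of the rule, thinning of cells, other filters and pseudocounts. Of 31053 gene IDs, 31011 matched GENCODE vM21 (GRCm38), from which positions were taken. The comparison procedure was tested on simulated data.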

Additional observations from a re-analysis of the deposited data

How the results depend on the processing

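With 1 library per condition no library could be left out, and no interval covers spread between hearts. No paired analysis was possible because each group holds 1 library and no result comes from a test. Over all alternatives, values of the 4 comparisons (shares and gene counts) moved in 57 cases and stayed close in 103, and single genes and list medians moved in 472, reversed in 23 and stayed close in 2643. Ccl21a and Aldoa, each carried by more than 1 gene ID, were left out. Depth limits the sham members most: 1 UMI was worth 11.3 CPM there.

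The member shares of 13.1% (TAC) and 18.8% (sham) became 5.77% and 9.41% with at least 3 of the 5 genes. They became 7.83% and 7.53% at 2000 UMIs per cell, with shallower cells left out, and 4.52% and 13.1% at 1000 UMIs. The TAC share alone became 8.41% when the TAC library was drawn down to the depth of sham endothelial cells ("sham depth"). It became 18.5% when Prox1 and Npr3 were not required to be 0. Counts of genes are given next as higher and lower.

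Between members and comparison cells, the 60 higher and 22 lower genes became 127 and 89 with at least 3 of the 5 genes, 91 and 91 at 2000 UMIs, 229 and 183 at 1000 UMIs, 35 and 9 with no collagen limit, 27 and 64 with Prox1 and Npr3 allowed, 28 and 11 with a pseudocount of 50, 112 and 64 with no filter on low values, and 35 and 12 at 100 CPM or more. The lower genes alone became 39 at sham depth, 40 without cells with macrophage, mural or lymphocyte markers, 56 without cells of any other class and 38 with the mean of cell CPM.

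Between TAC and sham members, the 404 higher and 506 lower genes became 757 and 935 with at least 3 of the 5 genes, 770 and 984 when such cells also lacked foreign markers, 1316 and 1773 at 2000 UMIs, 1372 and 2108 at 1000 UMIs, 183 and 160 with a pseudocount of 50, 1527 and 1126 with no filter, and 207 and 258 at 100 CPM. For the difference of ratios, 338 and 175 became 751 and 350, 1035 and 682, 955 and 981, 116 and 52, 1735 and 1241, and 134 and 48 under at least 3 genes, 2000 UMIs, 1000 UMIs, pseudocount 50, no filter and 100 CPM in that order. Its lower genes alone became 275 at sham depth, 349 without cells of any other class and 269 with the stricter cell filter.

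Reversed TAC/sham log2 ratios were, with at least 3 of the 5 genes, Ccdc141 0.50, Pgf 0.75, Pdlim3 2.37 and Cdh11 3.28; at 2000 UMIs, Cebpb -1.07, Lcn2 -1.20, Pgf 2.17, Hbegf 2.43 and Adamts5 3.73; and at 1000 UMIs, Ifi27l2a -0.27 and Adamts5 0.77. Lyz2 was -0.82 without cells with macrophage, mural or lymphocyte markers, -1.19 without any other class and -0.81 when 3 genes were also required, where Prnp was 0.18, Pgf 0.56, Pdlim3 1.88 and Cdh11 1.22. Reversed list medians were endocardial genes between TAC and sham members (1.83 at 1000 UMIs, 0.91 with a 0.15% collagen limit), lymphatic genes between TAC members and comparison cells (-0.86 at 1000 UMIs), and in sham cells macrophage genes (0.072 with 3 of the 4 endothelial genes) and Notch ligands, receptors and modifiers (-0.29 with no filter). The sham members were 7 cells at 2000 UMIs and 19 cells at 1000 UMIs. At either depth 1 sham UMI was enough to reach the 50 CPM minimum used in the gene counts above. The cause of the reversals was not tested.

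Ddit4, Tmsb10, Lpl, Timp4, Gadd45g and Edn1 stayed at least 2-fold in the same direction between TAC and sham members under all 22 alternatives run for them. Between members and comparison cells Alpl, Fbln5, Nebl, Eps8l2, Fn1, St8sia6, Jag1, Azin1, Aplnr and Ift122 did so in both libraries under all 23.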
